A study of Homo sapiens with 6 samples.

Results

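FEN1 is the flap endonuclease that removes the displaced 5′ ends of DNA strands. Its knockout was measured here in a pooled screen of paired CRISPR guides in eHAP iCas9 clone 6. This human line is p53 null and carries Cas9 under doxycycline control. The constructs were chosen by name, as every construct holding 1 of the 4 guides called Fen1_sg1 to Fen1_sg4, and the gene was selected from values of these libraries, so its own levels are described without a test. Fen1 is 1 of 459 targeted genes, and its guides were in 3704 of 863546 constructs with reads. The irradiated group (2 libraries) received 0.6 Gy of X-rays a day after every split and was collected at day 15 after 10 population doublings. The unirradiated group (2 libraries) was collected at day 14 after 12 doublings, and the starting population (2 libraries) at day 0. All 3 groups came from the same clone, were selected with blasticidin and puromycin and had Cas9 induced with doxycycline. The labels give both LD20 and LD30 for the irradiation, and nothing in them says that replicates were separate cultures, so errors cover the spread between these libraries only. The tables write gene symbols in the mouse style, although the cells are human.

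Each lagging strand of a replication fork is made in short pieces called Okazaki fragments, and each piece begins with an RNA-DNA primer laid down by the DNA polymerase alpha-primase complex. DNA polymerase delta, held on DNA by the sliding clamp PCNA, pushes that primer up as a flap, FEN1 cuts the flap off, and DNA ligase I seals the nick. FEN1 cuts flaps in the same way in long-patch base excision repair, and its yeast counterpart RAD27 is known for many synthetic lethal partners in recombination and checkpoint genes. The human gene FEN1 (gene ID 2237) lies on chromosome 11, from 61792911 to 61797238 on the forward strand of GRCh38.p14. Guide sequences and target sites were not used here.

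Guides 1 and 2 of a gene stood at position 1 of the construct and guides 3 and 4 at position 2. The 6 libraries held 61185707 to 86587125 reads each, of which Fen1 constructs took 274298 to 434257. Irradiated replicate 2 and day 14 replicate 1 had no reads for 49.4% and 54.1% of all constructs, against 1.93% to 7.62% in the other 4 libraries, and results on single constructs are therefore given for irradiated replicate 1 and day 14 replicate 2 first. In day 0 replicate 1, 264 of 927 position 2 guides were more than 0.5 lower on the log2 scale than in day 0 replicate 2. Neither Fen1_sg3 nor Fen1_sg4 was among them, with differences of −0.12 and −0.13.

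Of the 4 Fen1 guides, Fen1_sg3 alone lay below both day 0 libraries in all 4 later libraries. Its total over all partners, in CPM (reads scaled to the TMM-adjusted total of its position), was 583 and 525 in the irradiated libraries, 595 and 660.5 in the day 14 libraries and 980.4 and 1068 in the day 0 libraries. The groups did not overlap, and the irradiated libraries lay lowest. The means were 554 ± 41.3 in the irradiated group, 628 ± 46.1 at day 14 and 1024 ± 61.9 at day 0 (SD, n = 2 each). The log2 change was −0.89 (SE 0.11) for irradiated day 15 against day 0 and −0.71 (SE 0.11) for day 14 against day 0, which leaves 0.541 and 0.613 of the day 0 level. Irradiated day 15 against day 14 gave −0.18 (SE 0.11), with all 4 library comparisons lower. Of 927 position 2 guides, 18.8% were lower in all 4 library comparisons for irradiated day 15 against day 0. The shares were 19.0% for day 14 against day 0 and 13.6% for irradiated day 15 against day 14. In any single comparison, separation of the groups alone therefore does not set Fen1_sg3 apart.

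Fen1_sg4, the other guide at position 2 and the most abundant Fen1 guide, had 3071 and 3089.8 CPM in the irradiated libraries, 2936 and 3099 in the day 14 libraries and 2759 and 3012 in the day 0 libraries. Its log2 change was 0.09 (SE 0.07) after irradiation and 0.06 (SE 0.07) at day 14, both against day 0. Its groups overlapped at day 14, and the highest day 0 library lay 0.03 (log2) below the lower irradiated library. Fen1_sg1 had 364 and 359 CPM in the irradiated libraries, 393 and 358 in the day 14 libraries and 388 and 368 in the day 0 libraries. Fen1_sg2 had 659 and 549.9 in the irradiated libraries, 568 and 649 in the day 14 libraries and 609.5 and 621 in the day 0 libraries. Relative to their day 0 mean, both position 1 guides lay between −0.16 and 0.10 on the log2 scale in every library. Their log2 changes were −0.06 and −0.03 after irradiation (SE 0.08 and 0.10) and −0.01 and −0.02 at day 14 (SE 0.08 and 0.10).

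**Figure D1:**
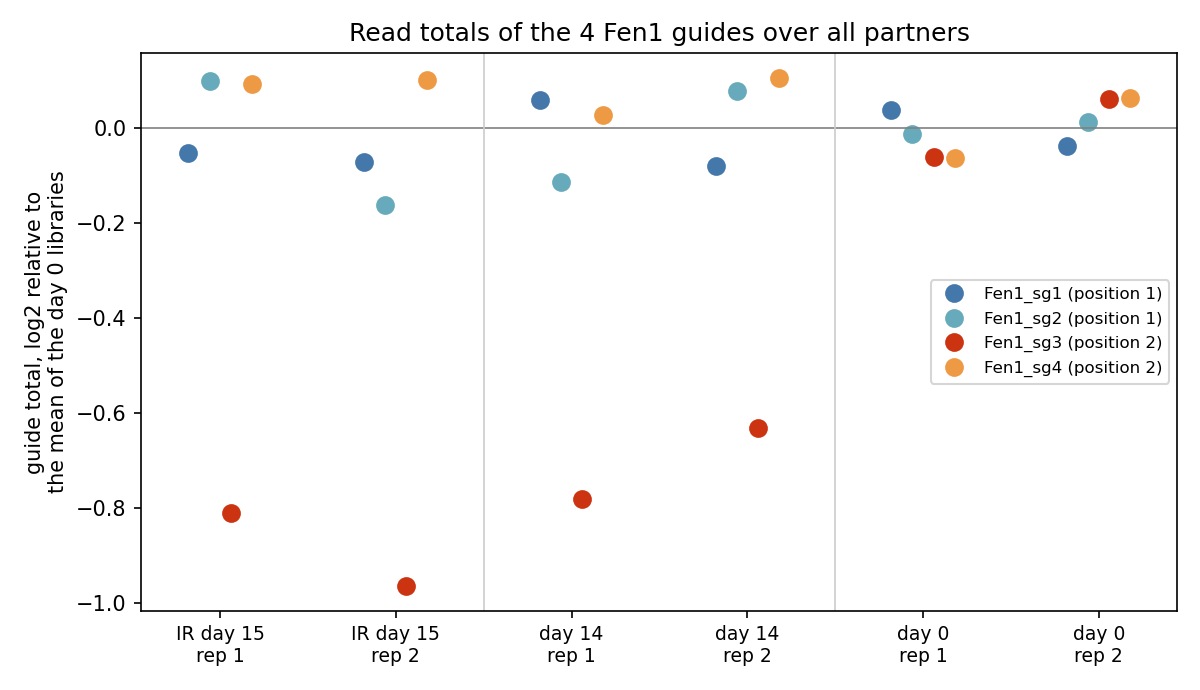
Read total of each Fen1 guide over all partners in the 6 libraries, as log2 relative to the mean of both day 0 libraries (vertical axis); each point is 1 library. Fen1_sg3 lies between −0.63 and −0.96 in the 4 later libraries, and the other 3 guides lie between −0.16 and 0.10.

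Averaged over the 4 guides, Fen1 changed by −0.22 (SD over guides 0.45) after irradiation and −0.17 (SD 0.36) at day 14, both log2 against day 0. Without Fen1_sg3 the mean of the other 3 guides was 0.00 and 0.01. The gene mean therefore describes 1 guide, and the guides did not agree. In the order of all 1849 guides with a mean total of at least 2000 reads, Fen1_sg3 was the lowest in both comparisons with day 0. The next lowest were Rfwd3_sg4 after irradiation (−0.69, SE 0.13) and Atr_sg2 at day 14 (−0.65, SE 0.10). The lowest 1% of position 2 guides began at −0.44 after irradiation and −0.37 at day 14. In the comparison of irradiated day 15 with day 14, Fen1_sg3 was the 29th lowest of 1849 guides.

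The fit over all guides (edgeR's quasi-likelihood test with Benjamini-Hochberg adjustment, threshold 0.05) called few guides at all. It called 1 of 1849 guides after irradiation (Cebpg_sg1, higher), which is 0.0541%, and 2 at day 14 (Rnf111_sg1 and Sfpq_sg1, both lower), which is 0.108%. For irradiated day 15 against day 14 it called 10, which is 0.541%. At an unadjusted p under 0.05 there were 57, 111 and 134 guides, and DESeq2 called 24, 22 and 30. Leaving out day 0 replicate 2 raised edgeR's count to 330 guides after irradiation and 337 at day 14, and leaving out irradiated replicate 2 lowered the count for irradiated day 15 against day 14 to 1. None of the 4 Fen1 guides was among the calls of the fit to all 6 libraries. In both comparisons with day 0, Fen1_sg3 was called in 4 of 12 alternative fits, namely with DESeq2, with scaling by non-targeting guides and with either day 0 library left out. Nothing is read from these calls, since the same contrasts chose the gene.

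**Figure D2:**
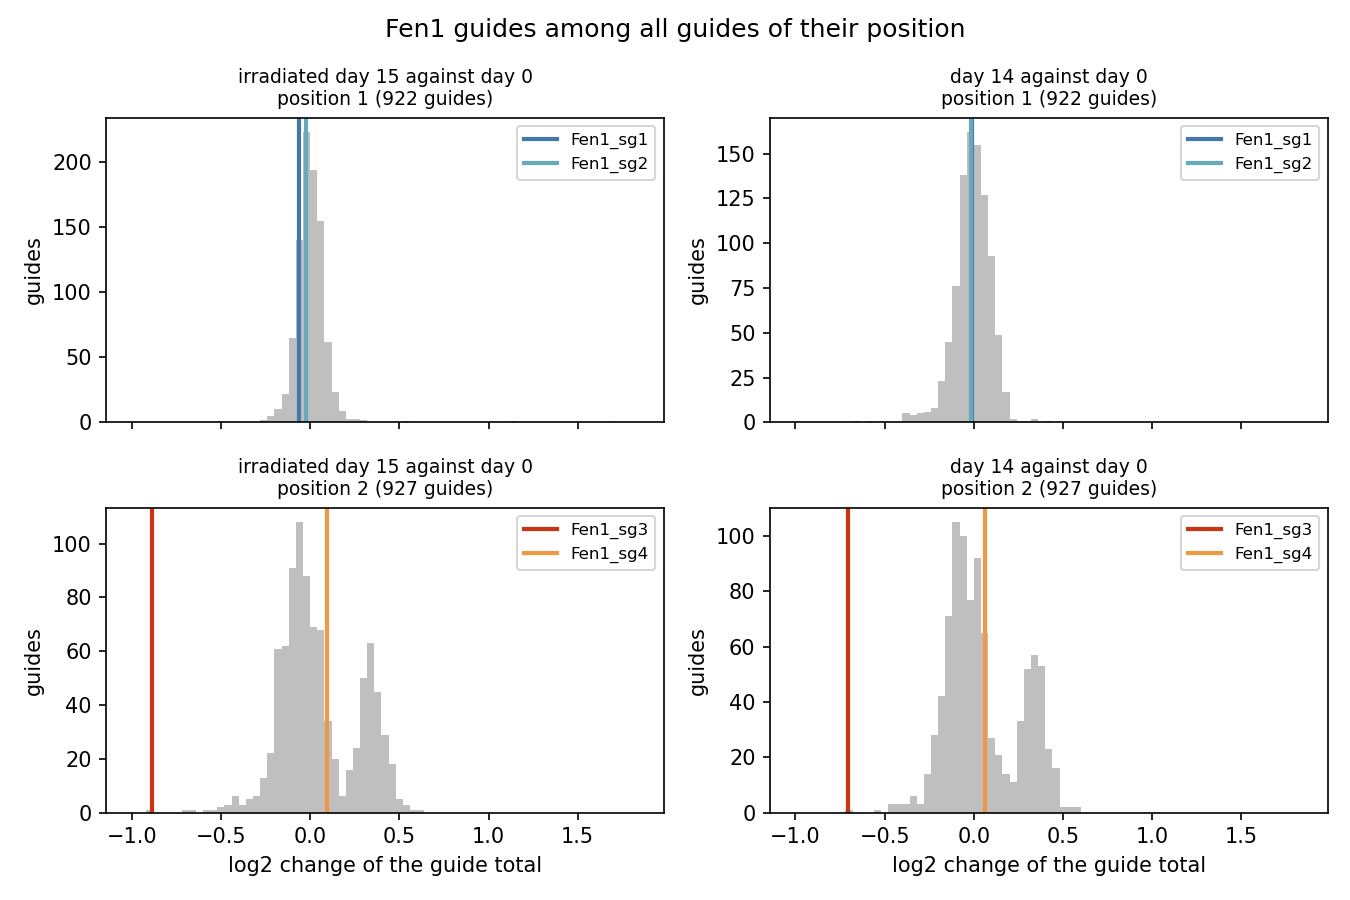
Log2 change of the guide total (horizontal axis) for all guides of position 1 (upper row) and position 2 (lower row), with the Fen1 guides as coloured lines; bars count guides. Fen1_sg3 lies at −0.89 and −0.71, left of every other position 2 guide, and the second hump at position 2 holds guides that were lower in day 0 replicate 1.

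The lower level of Fen1_sg3 was spread over its constructs. Each construct pairs the guide with a different position 1 guide, and 886 of its 929 constructs had at least 40 reads over both day 0 libraries. In irradiated replicate 1, 85.3% of these had a lower share than at day 0, with a median log2 change of −1.15 and quartiles of −2.09 and −0.37. In day 14 replicate 2, 81.9% were lower, with a median of −0.82 and quartiles of −1.52 and −0.17. The 921 constructs of Fen1_sg4 had a median of 0.00 in irradiated replicate 1 and 0.06 in day 14 replicate 2, and 50.6% and 45.0% of them were lower. These constructs share the guide and are not replicates.

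Reads were also set against the other position 2 guides with the same partner guide. Of the Fen1_sg3 constructs, 80.9% in irradiated replicate 1 and 79.2% in day 14 replicate 2 lay below the median of their partner. This was the highest share among 911 position 2 guides with at least 200 such constructs, whose median shares were 52.3% and 53.1%. The same reads make up the guide total, and the gene was selected from values of these libraries. The rank therefore describes the spread over constructs and is not separate support. For Fen1_sg4 the shares were 38.9% and 38.7%. Fen1_sg1 had 58.8% and 58.2%, and Fen1_sg2 had 52.2% and 54.0%, beside a median of 50.6% in both libraries among 918 position 1 guides.

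The decline of Fen1_sg3 was present in all 4 classes of starting level examined. Constructs with 40 to 100 reads at day 0 had a median log2 change of −1.34 in irradiated replicate 1 and −0.95 in day 14 replicate 2, and constructs with 200 to 400 reads had −1.10 and −0.72. Medians of the other position 2 guides in the same read classes were −0.28 and −0.14 for the lower class and −0.17 and −0.10 for the upper. Among constructs with 200 to 400 reads, single constructs scattered around these medians with an SD of 1.30 and 0.91 for Fen1_sg3, against a median SD of 0.87 and 0.68 over the other position 2 guides. At those levels 87.6% and 83.6% of the 299 Fen1_sg3 constructs were lower than at day 0, and of the 62 constructs with at least 400 reads 88.7% and 87.1% were lower.

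**Figure D3:**
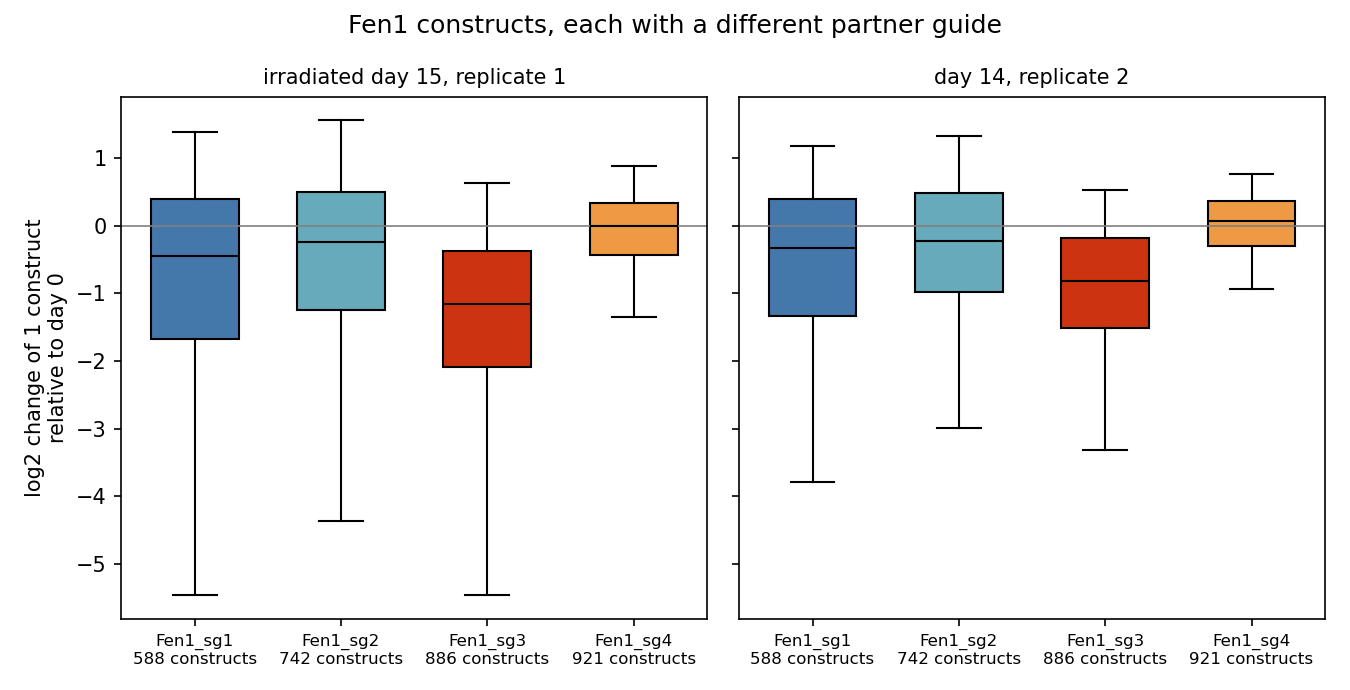
Log2 change of single Fen1 constructs relative to day 0 in irradiated replicate 1 (left) and day 14 replicate 2 (right), by guide; boxes span the quartiles, the line is the median and whiskers run from the 5th to the 95th percentile of the constructs with at least 40 day 0 reads. The box of Fen1_sg3 lies wholly below 0 in both libraries, with medians of −1.15 and −0.82.

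Fen1_sg3 constructs without any reads were somewhat more frequent than the median of its position. It had no reads for 7.75% of its constructs in irradiated replicate 1 and 3.88% in day 14 replicate 2, beside medians of 4.30% and 2.89% over position 2 guides. In the incomplete libraries 52.2% of its constructs in irradiated replicate 2 and 63.3% in day 14 replicate 1 had no reads, beside medians of 49.8% and 55.1%. Fen1_sg4, the most abundant guide, had none for 18.0% and 20.8% there, and Fen1_sg1, the least abundant, for 71.8% and 74.4%.

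Summed per partner gene, Fen1_sg3 was lower than at day 0 with 404 of 456 partner genes (88.6%) in irradiated replicate 1 and with 396 (86.8%) in day 14 replicate 2. It was lower by at least 1 on the log2 scale with 241 and 161 of them. Its log2 change had a median of −1.07 and −0.77, and ran from −2.26 and −1.73 at the 10th percentile to 0.06 and 0.08 at the 90th. Fen1_sg4 was lower with 227 and 181 of 457 partner genes, and by at least 1 with 13 and 6. Guide profiles over partner genes were set against each other in pairs of Fen1 guides. Across partner genes, the change relative to the partner's median correlated between Fen1_sg3 and Fen1_sg4 with Pearson r = 0.00 in irradiated replicate 1 and 0.03 in day 14 replicate 2 (457 genes), and between Fen1_sg1 and Fen1_sg2 with 0.07 and 0.00 (372 genes). The largest value among the 6 pairs of guides was 0.16 for Fen1_sg1 and Fen1_sg4 in day 14 replicate 2, against 0.05 in irradiated replicate 1 (387 genes). These points share the library and the day 0 reads, and are given as a description.

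With non-targeting guides in place of a partner, which gives the single knockout, Fen1_sg3 had the lowest change of the 4 Fen1 guides in every later library. These constructs are part of the guide totals above, so this is not a separate measurement. Scaled by constructs with a non-targeting guide at both positions, Fen1_sg3 changed against the day 0 mean by −1.07 and −1.43 on the log2 scale in the irradiated libraries and by −1.10 and −0.67 in the day 14 libraries. All 4 values are below 0, and 23 of 25 such constructs in irradiated replicate 1 and 21 of 25 in day 14 replicate 2 were lower than at day 0. In irradiated replicate 2 and day 14 replicate 1, the incomplete libraries, 18 and 15 of its 25 constructs had no reads. The values of −1.43 and −1.10 there rest on the remaining constructs. Fen1_sg4 changed by 0.06 and −0.70 in the irradiated libraries and by −0.59 and 0.03 in the day 14 libraries. Its negative values are those of the incomplete libraries, in which 8 and 4 of its 25 constructs had no reads. Fen1_sg1 changed by 0.28 and 0.93 in the irradiated libraries and 0.59 and 0.11 in the day 14 libraries. Fen1_sg2 changed by 0.15 and −0.13 in the irradiated libraries and 0.44 and 0.00 in the day 14 libraries. In irradiated replicate 2 and day 14 replicate 1, only 12 and 8 of the 35 such constructs of Fen1_sg1 had reads. For Fen1_sg2 10 and 11 of 35 had reads, so the values of both guides there rest on few constructs. Summed over the 4 guides, Fen1 changed by −0.22 (SE 0.19, n = 2 each) after irradiation and −0.17 (SE 0.19) at day 14 against day 0, and by −0.05 (SE 0.19) for irradiated day 15 against day 14.

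Only 4 constructs carried 2 Fen1 guides. Fen1_sg1 with Fen1_sg3 had 0 reads in all 4 later libraries, which allows up to 3 reads in each, and 70 and 14 reads at day 0. Fen1_sg2 with Fen1_sg3 had 31 and 72 reads in the irradiated libraries, 0 and 25 at day 14 and 81 and 75 at day 0. Fen1_sg1 with Fen1_sg4 had 68 and 380 reads in the irradiated libraries, 253 and 43 at day 14 and 121 and 60 at day 0. Fen1_sg2 with Fen1_sg4 had 100 and 0 reads in the irradiated libraries, 0 and 49 at day 14 and 170 and 82 at day 0. Per library total, without TMM scaling, the 4 constructs together made up 2.78 and 5.22 CPM in the irradiated libraries, 4.08 and 1.91 at day 14 and 5.24 and 2.67 at day 0, so the groups overlapped.

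The other genes of lagging strand synthesis were read from a list of 28 genes chosen with earlier results known, of which 16 were in the library, Fen1 included. None of their 61 guides was called in any comparison, beside 0.0541%, 0.108% and 0.541% of all guides. Gene means (log2, over guides) were below 0 for 8 of 16 genes after irradiation and 9 of 16 at day 14, with medians of 0.00 and −0.01. The other 6 genes of largest change at day 14 went both ways. Pola1, the catalytic subunit of polymerase alpha, averaged −0.19 after irradiation and −0.17 at day 14, with its lowest guide at −0.56 (SE 0.09) and −0.37 (SE 0.09). Pold2, a subunit of polymerase delta, averaged −0.14 and −0.15, and all 4 of its guides were below 0 in both.

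Dna2, a nuclease-helicase that shortens long flaps, averaged 0.22 after irradiation and 0.27 at day 14. Pcna, the sliding clamp, averaged 0.15 and 0.21, and Rnaseh2a, the catalytic subunit of ribonuclease H2, which cuts RNA in RNA-DNA hybrids, averaged 0.16 and 0.17. Each of these 3 genes has 2 guides among the 264 that were lower in day 0 replicate 1. Against day 0 replicate 2 alone their means were 0.07, −0.01 and −0.01 after irradiation and 0.13, 0.04 and 0.00 at day 14. Rfc1, the large subunit of the clamp loader, averaged 0.02 and 0.10. By the same baseline Fen1 averaged −0.24 after irradiation and −0.19 at day 14, Pola1 −0.16 and −0.14, and Pold2 −0.08 and −0.09.

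FEN1 belongs to a family of structure-specific nucleases with Exo1, an exonuclease of mismatch repair and end resection, Gen1, which cuts Holliday junctions, and Ercc5 (human XPG), which cuts in nucleotide excision repair. Among the 16 guides of these 4 genes 0 were called in any comparison. Exo1 averaged −0.07 after irradiation and −0.08 at day 14, Gen1 −0.06 and −0.05, and Ercc5 0.14 and 0.14. Against day 0 replicate 2 alone Exo1 averaged −0.01 and −0.01, Gen1 0.02 and 0.02, and Ercc5 0.00 and −0.01, so the small means of these 3 genes shrank or changed sign with the baseline. The lowest guide among these other 3 genes was Exo1_sg4, at −0.15 and −0.21. By gene mean Fen1 was the 2nd lowest of 459 genes after irradiation and the 9th lowest at day 14, and the 55th lowest for irradiated day 15 against day 14.

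The question the paired design asks is whether losing Fen1 with another gene changes growth beyond the sum of both single changes. This interaction, in log2 units, was fitted for 105111 gene pairs with edgeR. None was called in any comparison (0%), so the 0 of 458 Fen1 pairs called stand at the background. Pair counts sum over all Fen1 guides. Fen1_sg4 held 246315 of 417809 reads of Fen1 constructs in day 0 replicate 1 and 218592 of 333114 in irradiated replicate 1. Fen1_sg3 held 87537 and 41515. The pair interactions therefore weigh most the guide whose total changed by 0.09 after irradiation and 0.06 at day 14 (log2 against day 0). At an unadjusted p under 0.05 there were 1, 2 and 3 Fen1 pairs (0.218%, 0.437% and 0.655%) for irradiated day 15 against day 0, day 14 against day 0 and irradiated day 15 against day 14, beside 0.354%, 0.420% and 0.832% of all pairs. With limma-trend 0 Fen1 pairs were called, and 1, 0 and 1 of all pairs. The median 95% half-width of a Fen1 interaction was 1.23, 1.22 and 1.22.

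Fen1 interactions were spread about as widely as those of all pairs. Their medians were 0.04, 0.00 and 0.02, and their 5th and 95th percentiles were −0.91 and 0.88 after irradiation, beside −0.89 and 0.96 over all pairs, and −0.96 and 1.06 at day 14, beside −1.01 and 1.13. The additive fit sets each gene's median near 0, so the medians carry the count model only. The 2 construct orders did not repeat each other. Interactions with the Fen1 guide at position 1 had the sign of those at position 2 for 245 of 458 partners after irradiation and 239 at day 14, with Pearson r of 0.04 and 0.02. Of the partners, 101 and 87 had 1 sign in both orders and in all 4 library comparisons. The same count was not made over all pairs.

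**Figure D4:**
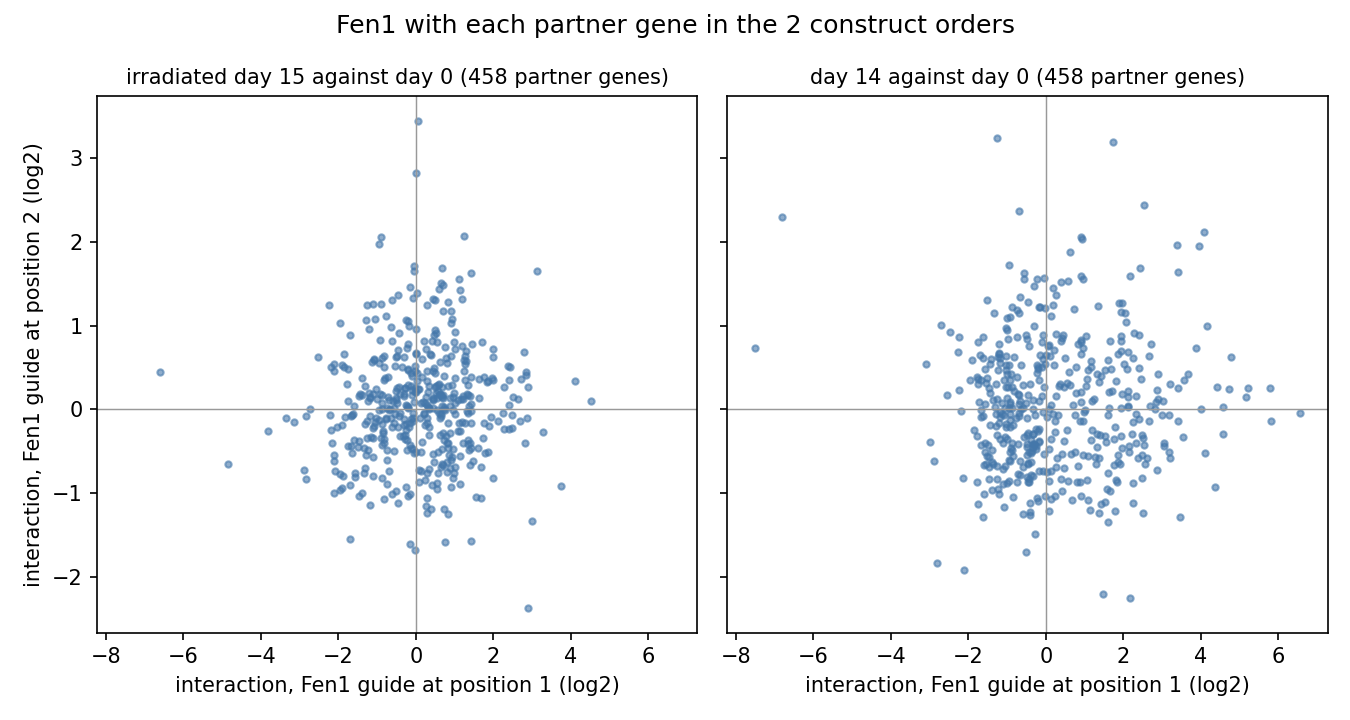
Interaction of Fen1 with each of 458 partner genes, with the Fen1 guide at position 1 (horizontal axis) and at position 2 (vertical axis), both log2; each point is 1 partner gene. The clouds have no slope, with r of 0.04 after irradiation (left) and 0.02 at day 14 (right).

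The partners named next had 1 sign in both orders and all 4 library comparisons, and none was called. After irradiation, here and below irradiated day 15 against day 0, the lowest included Tdg, a glycosylase that removes mismatched thymine and uracil. This comparison holds time in culture as well as X-rays. Fen1 with Tdg had 297 and 157 reads in the irradiated libraries, 248 and 416 in the day 14 libraries and 615 and 796 at day 0, an interaction of −1.35 (SE 0.54). Tdp1, which removes stalled topoisomerase I from DNA ends, had 323 and 162 reads with Fen1 in the irradiated libraries and 849 and 601 at day 0, an interaction of −1.29 (SE 0.63). Pms1, a MutL protein, gave −1.31 (SE 0.96). H2afx, the histone variant that marks breaks, gave −1.69 (SE 1.95) and had 0 reads with Fen1 in irradiated replicate 2. In each of these pairs the irradiated libraries lay below both day 0 libraries in reads. This goes with their choice by sign and adds nothing to it, and reads are not scaled to depth. Without both incomplete libraries the interactions of Tdg, Tdp1, Pms1 and H2afx were −1.01, −0.91, −0.85 and −0.70.

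Among partners with 1 sign in both orders and all 4 library comparisons, the highest interactions after irradiation belonged to Atr, Vcp, Shld3 and Gtf2h3. Without that limit the highest was Hist3h2a at 2.35 (SE 1.45). Atr, the replication stress kinase, had 484 and 788 reads with Fen1 in the irradiated libraries and 429 and 365 at day 0, an interaction of 1.01 (SE 0.62). Vcp, a segregase of ubiquitylated proteins, gave 0.88 (SE 0.68) and Gtf2h3, a TFIIH subunit, 0.84 (SE 0.39). Shld3, a shieldin subunit that limits end resection, had 795 and 707 reads in the irradiated libraries, 448 and 508 in the day 14 libraries and 544 and 546 at day 0, an interaction of 0.86 (SE 0.40). In reads, the irradiated and day 0 libraries did not overlap for Atr, Gtf2h3 and Shld3 and overlapped for Vcp. Such separation goes with the choice by sign, and reads are not scaled to depth. For Shld3, the single construct Shld3_sg1 with Fen1_sg4 held 688 of the 707 reads in irradiated replicate 2, and the other 7 constructs had 509 and 19 reads in the irradiated libraries and 373 and 302 at day 0. Without both incomplete libraries Shld3 was at 1.03 and Atr, Gtf2h3 and Vcp were at 0.69, 0.54 and 0.34.

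At day 14 the lowest partners within the same limit on signs were Gtf2h5, a TFIIH subunit (−2.16, SE 2.69), Slx1b, the nuclease subunit of SLX1-SLX4 (−2.04, SE 1.70), the recombination gene Xrcc3 (−1.47, SE 1.65), and Abraxas1, a BRCA1-A subunit (−1.36, SE 1.47). Each had 3 reads or fewer with Fen1 in day 14 replicate 1 and 134 to 663 in day 14 replicate 2. Their values without both incomplete libraries were −1.17, −1.08, −0.48 and −0.38. Within it the highest were Vcp (1.66, SE 0.69), H2afx (1.27, SE 1.93), the exonuclease Exd2 (1.26, SE 0.49) and the TFIIH subunit Gtf2h4 (1.23, SE 0.70). Without the incomplete libraries these were 0.31, 0.40, 0.50 and 0.18.

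For irradiated day 15 against day 14, the lowest partners of 1 sign in both orders and all library comparisons were H2afx (−2.97, SE 2.05), the histone methyltransferase Suv39h1 (−2.22, SE 1.04), the Fanconi anemia protein Faap24 (−1.71, SE 0.64) and the demethylase Fto (−1.36, SE 0.61). The highest by the same limit were the deubiquitinase Usp10 (2.03, SE 0.77), the protease Zmpste24 (1.56, SE 0.67), the Polycomb protein Cbx8 (1.55, SE 0.90) and the actin regulator Was (1.27, SE 1.77). Without both incomplete libraries the 4 lowest were at −1.10, −0.41, −0.48 and −0.31, and Zmpste24, Cbx8 and Was at 0.28, 0.17 and 0.45. Usp10 had 1234 and 9283 reads with Fen1 in the irradiated libraries and 887 and 1047 in the day 14 libraries, and a single construct, Usp10_sg1 with Fen1_sg4, held 8134 of the 9283. Its interaction without both incomplete libraries was 0.02.

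Of 27 genes commonly described as partners of FEN1 or of yeast RAD27, a list chosen with earlier results known, 26 were measured and 0 were called in any comparison, beside 0% of all pairs. Their interactions were below 0 for 10 of 26 after irradiation and 12 of 26 at day 14, beside 46.9% and 49.8% of all 458 partners, with medians of 0.12 and 0.06. The lowest after irradiation were Lig1, the Okazaki fragment ligase (−0.66, SE 1.82), the checkpoint kinase Chek1 (−0.57, SE 0.57), the 9-1-1 clamp loader Rad17 (−0.51, SE 0.62) and Mre11a, a nuclease of break resection (−0.41, SE 0.48). The highest were Polq, the polymerase of alternative end joining (1.06, SE 0.94), Brca1 (0.92, SE 1.02), the single-strand break scaffold Xrcc1 (0.86, SE 0.71) and Exo1 (0.84, SE 0.57). Rad54b, Lig4, Chek1 and Lig1 were lowest at day 14 (−0.98, −0.89, −0.81 and −1.05), and values of 1.63, 1.32 and 0.92 for Blm, Rad54l and Nbn were among the highest. Several of these signs turned when both incomplete libraries were left out, with 0.19 for Lig1, −0.78 for Polq, −0.17 for Brca1 and −0.11 for Xrcc1 after irradiation, and 0.10 for Lig4, −0.25 for Blm and −0.22 for Nbn at day 14.

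With the other 15 measured genes of lagging strand synthesis, interactions were below 0 for 8 after irradiation, 11 at day 14 and 4 for irradiated day 15 against day 14, with medians of −0.05, −0.19 and 0.39, beside 46.9%, 49.8% and 48.0% of all partners below 0. With 26 genes of base excision and single-strand break repair, the pathway in which FEN1 cuts flaps of long patches, they were below 0 for 14, 13 and 14, with medians of −0.01, 0.01 and −0.05.

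For irradiated day 15 against day 14, the 26 described partners had 10 values below 0 and a median of 0.23. Blm, the RecQ helicase, was the lowest at −1.50 (SE 0.80), followed by Mre11a (−1.25, SE 0.49) and Rad54l (−1.19, SE 0.70). Brca1 was the highest at 1.54 (SE 1.04), before Lig3 (1.23, SE 1.73), Rnaseh2a (1.06, SE 1.63) and Rad54b (0.85, SE 0.88). Blm with Fen1 had 473 and 426 reads in the irradiated libraries and 1601 and 304 in the day 14 libraries, and its value without both incomplete libraries was 0.48. Its sign therefore turned with the libraries used, as did that of Brca1 (−0.36 without them). Lig3 and Rnaseh2a had 0 and 1 reads with Fen1 in day 14 replicate 1. Without both incomplete libraries Lig3, Rnaseh2a and Rad54b were at 0.15, 0.07 and 0.19, and Mre11a and Rad54l at −0.47 and −0.47.

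The interaction was also fitted for each Fen1 guide alone with each partner gene, against all guides of the same position. Of 456 partner genes of Fen1_sg3 none was called in any comparison, and 6, 33 and 13 had an unadjusted p under 0.05 for irradiated day 15 against day 0, day 14 against day 0 and irradiated day 15 against day 14. These are 1.32%, 7.24% and 2.85%, beside 1.56%, 5.42% and 1.79% of all pairs of a position 2 guide with a gene. Fen1_sg4, Fen1_sg1 and Fen1_sg2 also had 0 called of 457, 432 and 446 partner genes. At that p, in the same order of comparisons, Fen1_sg4 had 5, 13 and 3 (1.09%, 2.84% and 0.656%). At position 1, Fen1_sg1 had 16, 17 and 4 (3.70%, 3.94% and 0.926%) and Fen1_sg2 had 9, 29 and 10 (2.02%, 6.50% and 2.24%). Of all pairs of a position 1 guide with a gene, 1.54%, 5.30% and 1.68% had such a p. Over all position 2 guides, 1, 0 and 2 of 397930 such pairs were called. With the described partners, Fen1_sg3 was lower than at day 0 for 24 of 26 genes in irradiated replicate 1 and 21 of 26 in day 14 replicate 2. The shares over all its 456 partner genes were 88.6% and 86.8%. Its medians with the described partners were −0.92 and −0.54, beside −1.07 and −0.77 over all. Fen1_sg4 was lower for 10 and 9 of 26, beside 49.7% and 39.6% of all 457. Its medians were 0.11 and 0.16, beside 0.00 and 0.09 over all. The counts with described partners therefore follow the change of each guide over all partners. For Rad17, Fen1_sg3 had 7 reads in irradiated replicate 1, 4 in day 14 replicate 2 and 55 and 101 at day 0. For Lig1 it had 74 reads in irradiated replicate 1, 77 in day 14 replicate 2 and 48 and 99 at day 0, so the reads did not fall below both day 0 libraries there. In irradiated replicate 2 and day 14 replicate 1, the incomplete libraries, both pairs had 0 reads.

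Single constructs set several of the largest Fen1 values. Hist3h2a_sg1 with Fen1_sg4 (Hist3h2a encodes a histone H2A) had 6225 and 72 reads in the irradiated libraries, 236 and 1492 in the day 14 libraries and 119 and 945 at day 0. It held 94.6% of all Fen1 with Hist3h2a reads in irradiated replicate 1, and the other 7 constructs of that pair summed to 358 reads there and to 430 and 363 at day 0. Fen1_sg2 with Etaa1_sg3 (Etaa1 encodes an activator of ATR) had 3291 and 1 reads in the irradiated libraries, 13 and 1917 in the day 14 libraries and 43 and 1045 at day 0. Both constructs were high in irradiated replicate 1, day 14 replicate 2 and day 0 replicate 2 and low in the other 3 libraries.

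Without both incomplete libraries, only effect sizes are given, for the partners that edgeR singled out in those fits, as it did pairs of other genes. The interaction with Hist3h2a was 3.31 for irradiated day 15 against day 0, 1.49 for day 14 against day 0 and 1.83 for irradiated day 15 against day 14. Etaa1 was at 1.84 and 1.43 in the first 2. After irradiation Shld3 was at 1.03, Chd1l at 0.95, Atm at 0.83 and Hsf1 at 0.76. Gtf2h5 was at 1.67 for irradiated day 15 against day 14. These fits leave 1 library in each later group, which is then assumed to vary like the day 0 libraries.

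**Figure D5:**
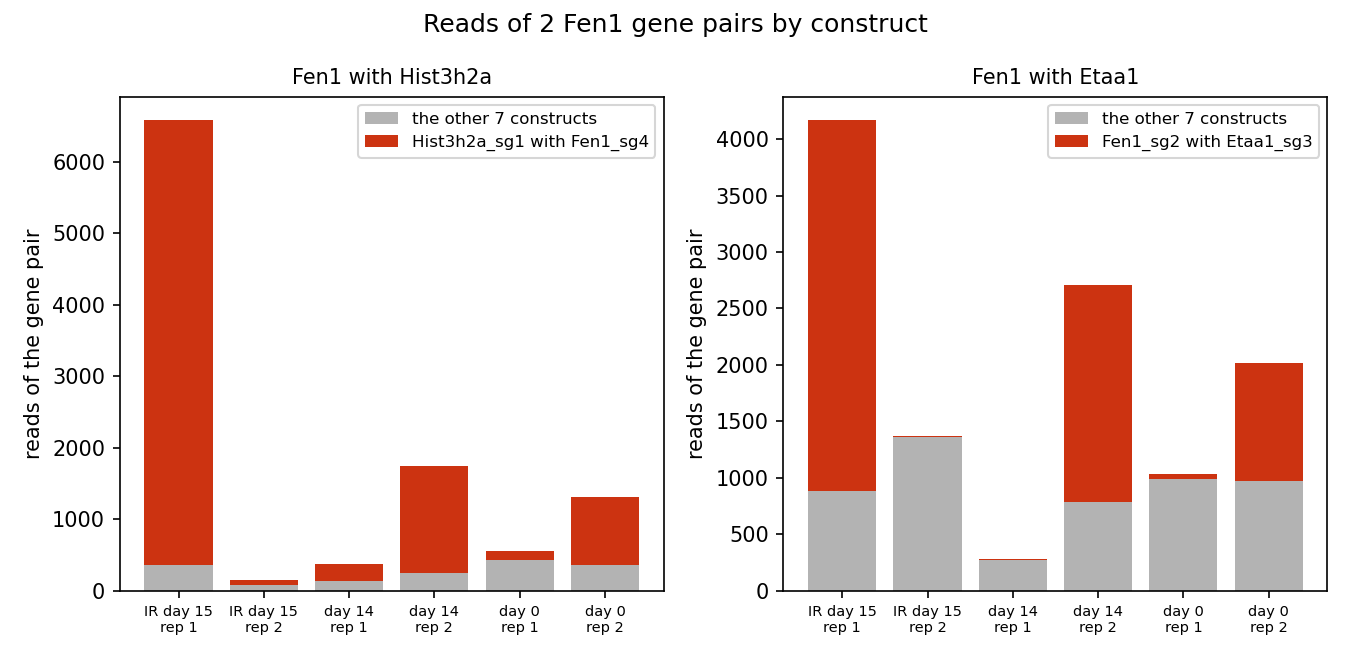
Reads of the gene pairs Fen1 with Hist3h2a (left) and Fen1 with Etaa1 (right) in the 6 libraries, split into the construct with most reads (red) and the other 7 constructs (grey). Hist3h2a_sg1 with Fen1_sg4 holds 6225 of the reads in irradiated replicate 1 and Fen1_sg2 with Etaa1_sg3 holds 3291.

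No single construct carried the total of Fen1_sg3. Its most abundant construct held 1.42% and 2.62% of its reads in the irradiated libraries (with Chd1l_sg2 and Aplf_sg1), 2.32% and 0.661% in the day 14 libraries (with Nbn_sg1 and Poli_sg2) and 0.563% and 0.479% at day 0 (with Smc4_sg2 and Poli_sg2). For Fen1_sg2 the largest share was 6.98%, with Etaa1_sg3 in irradiated replicate 1. For Fen1_sg4 it was 3.09%, with Usp10_sg1 in irradiated replicate 2, and for Fen1_sg1 3.68%, with Asf1a_sg3 in the same library.

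Over the 6 libraries, the genes whose mean guide totals ran most like those of Fen1 were Polr2i, a subunit of RNA polymerase II (Pearson r = 0.93), Polq (0.91), the ubiquitin ligases Rad18 and Rnf138 (both 0.90) and Pola1 (0.89). Likeness was taken over 6 libraries that share 1 starting population, and 4 of 458 genes had r above 0.9. The centred log2 values of Fen1 were −0.04 and −0.14 in the irradiated libraries, −0.07 and 0.00 in the day 14 libraries and 0.10 and 0.15 at day 0. Those of Polr2i were −0.11 and −0.15, −0.10 and 0.01, and 0.21 and 0.13 in the same order. Across all 5 genes the day 0 libraries were the 2 highest, which goes with choosing them by likeness to Fen1.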

How the data were processed

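The authors deposited raw read counts per guide pair for 6 libraries, whole numbers that are not normalised, per the file headers and the values. Guide pairs absent from a table were set to 0, and 2 columns of the combined tables that match no sample were not used. HISAT2 2.1.0 and build hg38 are named in the submitters' processing notes, and the assignment of reads to guides is not described there. Counts of each guide were summed over all partners (1849 guides, mean of at least 2000), scaled by TMM within each position and fitted per position with edgeR 4.0.16 (quasi-likelihood, two-sided, Benjamini-Hochberg adjustment over both positions, threshold 0.05) to all 6 libraries. Constructs with a non-targeting guide were scaled by those with 2 of them. Interactions are contrasts of gene-pair counts with an offset from additive medians (log2 CPM, prior count 2). Single constructs were compared as log2 ratios with 0.5 added to the reads. DESeq2 1.42.0 and limma 3.58.1 were alternatives. Standard errors cover 2 libraries a group, so precision is limited by their number as well as by depth. Guides and pairs named follow a rule on size, sign in both construct orders and sign in all library comparisons. The members, gene lists and rule were chosen with earlier results of these data known. The limit set by 0 reads covers counting error only, since PCR reads are not independent molecules. Some results that the rule names are not reported here.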

Additional observations from a re-analysis of the deposited data

How the results depend on the processing

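Fen1_sg3 stayed below day 0 in both comparisons under all 13 alternatives, between −0.96 and −0.81 (log2) after irradiation and between −0.78 and −0.63 at day 14 when 1 library was left out. The median over constructs in place of the sum gave −1.56 and −1.43, and −0.89, −0.88 and −0.14 for the mean over 4 guides (irradiated day 15 against day 0, day 14 against day 0 and irradiated day 15 against day 14, the order kept below); it counts constructs without reads in the incomplete libraries. Leaving out 1 library, the mean over 4 guides ran from −0.27 to −0.17, −0.20 to −0.13 and −0.11 to 0.00059, and Fen1 with non-targeting partners from −0.42 to −0.048, −0.29 to −0.070 and −0.25 to 0.13. With 2 libraries a group, single pairs had wider intervals than guide totals.

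Counts of guides called (1, 2 and 10) were 24, 22 and 30 with DESeq2, and 7 and 4 in the first 2 with scaling by non-targeting guides. Without day 14 replicate 1 and irradiated replicate 2 together they were 2 and 8 in the first 2, and leaving out 1 library gave 1 to 330, 1 to 337 and 1 to 9. Counts of Fen1 pairs called (0, 0 and 0) were 6, 2 and 2 without both incomplete libraries, and those of Fen1_sg3 with single partner genes were 7, 0 and 0. The cause of these shifts was not tested.

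The median interaction (0.04, 0.00 and 0.02) is held near 0 by the additive fit, so small shifts exceed its replicate spread. It was 0.014, −0.012 and 0.012 with limma-trend, 0.0029, −0.016 and 0.023 without both incomplete libraries, 0.12, −0.085 and −0.22 with the Fen1 guide at position 1, and 0.039, 0.0096 and 0.025 at position 2. A mean count of at least 50 gave 0.0033 and 0.016 in the last 2 comparisons. Leaving out 1 library gave −0.0069 to 0.058, −0.034 to 0.035 and −0.098 to 0.075.

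Deviations of guides with the same replicate number correlated with r = 0.11 (irradiated and day 0), −0.045 (day 14 and day 0) and −0.58 (irradiated and day 14). The incomplete libraries of the later groups carry different replicate numbers. Whether the numbers pair the libraries cannot be told from these values. With a replicate block 2, 1 and 5 guides were called, and the median interaction was 0.047, −0.0085 and 0.039. The block called 0, 1 and 0 of 456 partner genes of Fen1_sg3, and the share over all guides is not given beside it. A crossed pairing, chosen after seeing the data, called 76 guides for irradiated day 15 against day 14, where the median interaction was 0.013.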
